A study of Mus musculus with 4 samples.

Results

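The citric acid cycle and fatty acid oxidation genes described here are 40 of the 19737 genes in the deposited matrix. They were chosen by symbol for their place in the pathway, with earlier results of these data known. They fall into 6 roles: pyruvate entry (4 genes), the cycle itself (13), the cytosolic partners of cycle enzymes (2), fatty acid activation and carnitine entry (5), beta-oxidation (13) and electron transfer from beta-oxidation (3). Single-cell RNA-seq (10x Genomics, 3' chemistry) of brain microglia was available from 20 mice in 5 groups of 4, and each of 4 pooled libraries held 1 mouse of every group. Every mouse carried TfRmu/hu, a mouse transferrin receptor with the human apical domain, on a C57BL/6J background. The 2 groups of WT;TfRmu/hu mice (WT) were given ATV:4D9 or ATV:ISO. The 3 groups with the AppSAA knock-in on top (AppSAA;TfRmu/hu, here AppSAA), homozygous for a humanized App allele carrying familial Alzheimer's disease mutations, were given ATV:ISO, 4D9 or ATV:4D9. Each mouse was given 10 mg/kg intravenously 1 day before collection. 4D9 is an antibody to mouse TREM2, ATV:4D9 is the same antibody with an Fc that binds the human part of the transferrin receptor, and ATV:ISO is the isotype control matched to the Fc of ATV:4D9, not to that of 4D9. The isotype groups are labelled ATV-DNP02 in the deposited annotation, which does not spell the name out, and were read as ATV:ISO. For the study as a whole the sources used here give male AppSAA mice of 8 months and WT;TfRmu/hu mice of both sexes aged 2 to 8 months, without saying which WT mice entered this experiment, and 1 WT ATV:ISO mouse, in pool 4, is recorded as female. They also differ on the gate (CD11b+ against Cd45+/Cd11b+) and on the tissue (cortex against cortex and hippocampus).

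The citric acid cycle oxidizes acetyl-CoA from pyruvate and fatty acids in the mitochondrial matrix and passes the electrons to the respiratory chain. Fatty acids are activated to acyl-CoA, carried into the matrix as acylcarnitines, and shortened by repeated rounds of an acyl-CoA dehydrogenase, a hydratase, a second dehydrogenase and a thiolase. Microglia are known to draw on both glucose and fatty acids, and the cycle also supplies intermediates for biosynthesis and signalling.

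The promoter windows of 4 members are shown because they moved in opposite directions below, Fh1 and Acadl up and Idh1 and Acads down after ATV:4D9, and the window between Hadha and Hadhb because these subunits of the trifunctional protein start back to back and were both called higher in WT after ATV:4D9, though not in AppSAA mice, nor in WT without TMM factors. RefSeq sequence on GRCm38.p6 is given 5' to 3' on each gene's strand, before its start and outside the gene itself in the GENCODE annotation. Matches to GGGCGG (Sp1) or CCAAT on either strand are in capitals. Overlap of the windows with other annotated genes was not checked.
Fh1 (minus strand, chr1:175625636-175625885): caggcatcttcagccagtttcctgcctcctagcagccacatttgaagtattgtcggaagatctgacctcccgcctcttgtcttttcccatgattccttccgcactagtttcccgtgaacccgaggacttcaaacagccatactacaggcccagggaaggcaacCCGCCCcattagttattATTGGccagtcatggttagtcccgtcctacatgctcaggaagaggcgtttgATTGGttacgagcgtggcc
Acadl (minus strand, chr1:66863310-66863559): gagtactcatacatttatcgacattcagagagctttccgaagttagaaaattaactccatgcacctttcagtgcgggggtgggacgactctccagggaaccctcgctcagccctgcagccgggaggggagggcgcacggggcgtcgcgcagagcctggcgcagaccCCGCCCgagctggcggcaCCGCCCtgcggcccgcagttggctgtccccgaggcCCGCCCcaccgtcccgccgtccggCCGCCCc
Idh1 (minus strand, chr1:65186501-65186729): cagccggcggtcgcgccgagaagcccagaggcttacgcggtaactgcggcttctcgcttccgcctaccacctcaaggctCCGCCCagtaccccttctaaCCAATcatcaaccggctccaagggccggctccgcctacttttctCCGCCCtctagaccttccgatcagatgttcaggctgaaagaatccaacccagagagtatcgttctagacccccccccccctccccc
Acads (minus strand, chr5:115119347-115119596): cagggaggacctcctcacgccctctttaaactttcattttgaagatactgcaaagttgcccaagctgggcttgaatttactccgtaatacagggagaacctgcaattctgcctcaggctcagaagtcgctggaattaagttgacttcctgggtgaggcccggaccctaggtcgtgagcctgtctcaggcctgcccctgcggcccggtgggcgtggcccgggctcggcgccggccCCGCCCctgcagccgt
Hadha and Hadhb (plus strand, between their starts, chr5:30155163-30155247): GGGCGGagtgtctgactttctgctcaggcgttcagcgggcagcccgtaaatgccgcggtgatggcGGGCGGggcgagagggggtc
Fh1, Acadl and Idh1 all lie on chromosome 1, at 175600374 to 175625635, 66830839 to 66863277 and 65158616 to 65186500 in the GENCODE annotation, and Acads lies on chromosome 5 at 115110299 to 115119346. Of the 40 genes, 36 had a promoter entry, with 44 windows in all. GGGCGG was found in 63.6% of the 44 windows against 32.7% of 32851 windows of all genes, CCAAT in 47.7% against 33.8%, the NRF1 word GCGCATGC in 11.4% against 2.26%, the E-box CACGTG in 9.09% against 6.02% and the ERR word TCAAGGTCA in 0 windows against 0.387%. The Sp1 word was present in windows of genes that rose and of genes that fell: Acadl has 4 matches and Acads 1.

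Counts were summed per mouse over 2193 to 6126 cells, with 17150296 to 102446549 UMIs per mouse. The 8 microglial markers summed to 17438 to 26040 CPM in every mouse, whereas those of T and NK cells and of neurons stayed at or below 1.54 CPM, B cell markers at or below 0.696 CPM, and border macrophage, monocyte and neutrophil, oligodendrocyte and endothelial markers at 6.08 to 50.9 CPM. Of the 74212 distinct barcodes, 543 occurred in more than 1 pool. Mean UMIs per cell differed between groups: 8612 in WT ATV:ISO, 16780 in WT ATV:4D9, 11520 in AppSAA ATV:ISO, 11926 in AppSAA 4D9 and 17116 in AppSAA ATV:4D9. Levels are CPM, each gene's counts over a mouse's total count scaled by its TMM factor, the scale of the test, so they are shares of a mouse's transcripts and not amounts per cell. Values per mouse follow the order of pools 1, 2, 3 and 4. Fold changes are log2 with SE from edgeR's quasi-likelihood test, with p-values adjusted over the 14058 genes tested and called at 0.05. No source states whether the mice of a group came from separate litters, so the p-values measure the spread between these mice.

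In WT mice, most members of the citric acid cycle stood at a higher level after ATV:4D9, while the acyl-CoA dehydrogenases of beta-oxidation split. Of the 40 members 22 rose, against 30.8% of all genes tested, and 5 fell, against 32.5%. The median log2 fold change was 0.23 over the members and -0.05 over all genes, with single members between -1.09 and 1.31. Summed over the 40 genes on the TMM scale, the level was 1812 ± 132 CPM (SD, n = 4) with ATV:ISO and 2138 ± 113 CPM after ATV:4D9, of which the cycle genes made 687 ± 47.5 and 873 ± 45.5 CPM. In AppSAA mice 23 members rose after ATV:4D9 relative to ATV:ISO, against 27.9% of all genes, and 6 fell, against 27.1%, with a median of 0.21 over the members and -0.03 over all genes. Counted per cell rather than on the TMM scale, mean UMIs were higher after ATV:4D9 for 39 of 40 members in WT, where total UMIs per cell were 1.95 times as high, and for 38 of 40 in AppSAA, where the total was 1.49 times as high. Idh1 was the exception in WT (0.844 times), and Idh1 (0.794 times) and Acads (0.984 times) in AppSAA. The median ratio over the members was 2.11 in WT and 1.64 in AppSAA mice. How many of all genes were higher per cell was not counted.

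**Figure D1:**
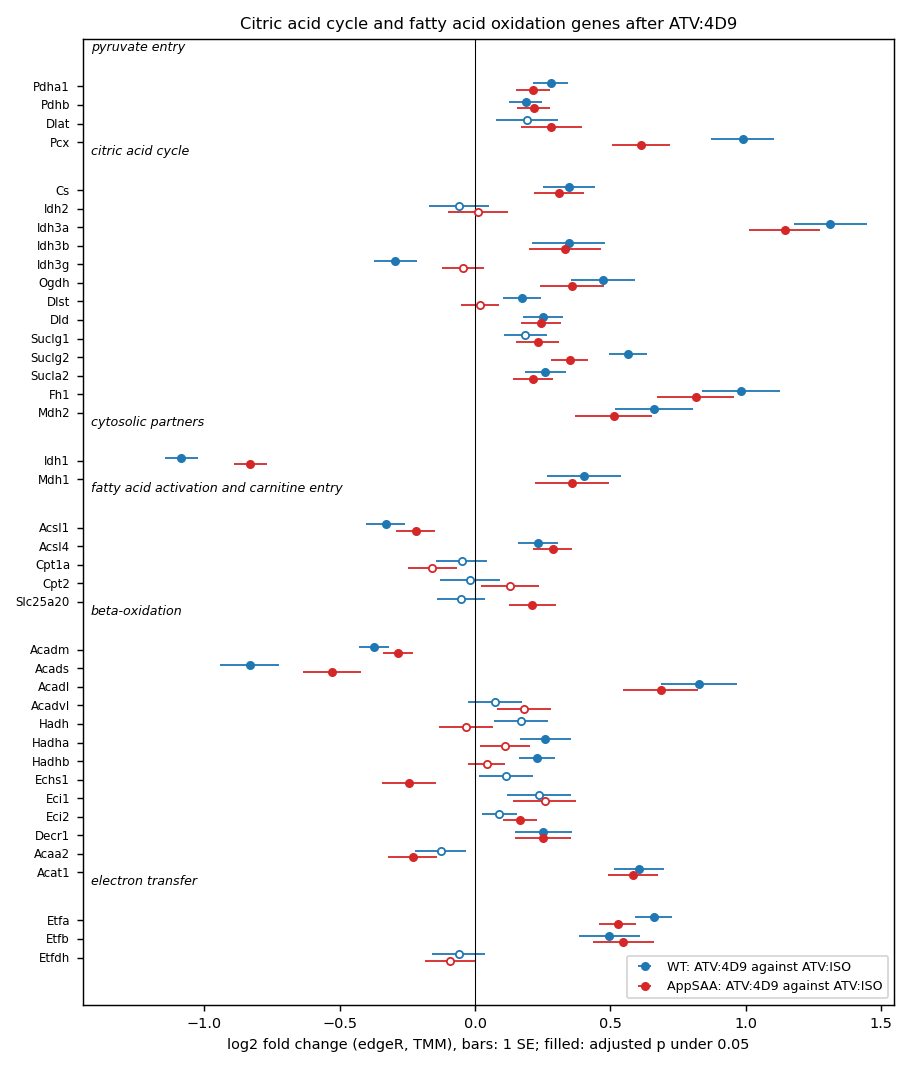
Log2 fold change (x axis) of each of the 40 members (y axis, by role) after ATV:4D9 relative to ATV:ISO in WT (blue) and AppSAA (red) mice, with 4 mice a group. Bars are 1 SE and filled points passed the adjusted p of 0.05; Idh3a (1.31 and 1.14) and Idh1 (-1.09 and -0.83) mark the ends of the range.

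Within the cycle, 10 of 13 members rose in WT and 10 rose in AppSAA mice, against 30.8% and 27.9% of all genes, and the 3 subunits of NAD-dependent isocitrate dehydrogenase did not move as one. Idh3a, the catalytic subunit, was at 27.1, 23.5, 24.0 and 20.4 CPM in WT ATV:ISO mice and at 65.9, 56.2, 56.7 and 56.6 CPM after ATV:4D9. Every treated mouse lay above every control, a rise of 1.31 ± 0.13 (adjusted p = 4.84e-08, edgeR, n = 4), or 2.49-fold. In AppSAA mice Idh3a was at 27.4, 28.7, 22.7 and 22.3 CPM with ATV:ISO and at 74.3, 50.7, 49.8 and 48.3 CPM with ATV:4D9. The groups were again apart, with the pool 1 mouse the highest (1.14 ± 0.13, adjusted p = 4.13e-07, edgeR). Idh3b, a regulatory subunit, rose by 0.35 ± 0.13 in WT and 0.33 ± 0.13 in AppSAA mice, although in either genotype the call was lost without the ATV:ISO mouse of pool 3 or 4 or the ATV:4D9 mouse of pool 1 or 2 (adjusted p up to 0.104 and 0.197, edgeR). Within every pool, however, Idh3b was higher in the ATV:4D9 than in the ATV:ISO mouse of either genotype, and both calls held with the pool as a block. Idh3g, the other regulatory subunit, went the opposite way in WT, from 91.0, 78.3, 76.5 and 83.2 CPM to 71.1, 61.5, 67.1 and 68.5 CPM. No treated WT mouse reached a control (-0.29 ± 0.08, adjusted p = 0.00281, edgeR). In AppSAA mice the Idh3g difference was -0.04 ± 0.08 (adjusted p = 0.652, edgeR).

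Fh1, the fumarase that hydrates fumarate to malate, was at 31.3, 23.7, 21.8 and 22.5 CPM in WT ATV:ISO mice and at 55.9, 46.8, 47.4 and 45.7 CPM after ATV:4D9. All treated mice exceeded all controls (0.98 ± 0.14, adjusted p = 6.02e-06, edgeR). The AppSAA values were 29.0, 27.3, 23.6 and 23.3 CPM with ATV:ISO and 60.8, 40.1, 39.9 and 40.4 CPM with ATV:4D9, a rise of 0.82 ± 0.14 (adjusted p = 6.53e-05, edgeR). Mdh2, the mitochondrial malate dehydrogenase that follows fumarase, was at 109.8, 92.5, 82.4 and 81.3 CPM in WT ATV:ISO mice and at 171, 135, 136 and 136 CPM after ATV:4D9. The treated mice were all higher (0.66 ± 0.14, adjusted p = 0.000433, edgeR), and in AppSAA mice the rise was 0.51 ± 0.14 (adjusted p = 0.00458, edgeR).

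The other cycle members moved less. Suclg2, the GDP-forming succinyl-CoA synthetase subunit, rose by 0.57 ± 0.07 and 0.35 ± 0.07, ahead of its ADP-forming counterpart Sucla2 (0.26 ± 0.07 and 0.21 ± 0.07). Ogdh, the first enzyme of the 2-oxoglutarate dehydrogenase complex, rose by 0.47 ± 0.12 and 0.36 ± 0.12, and Dld, the dihydrolipoamide dehydrogenase shared by this complex and pyruvate dehydrogenase, by 0.25 ± 0.07 and 0.24 ± 0.07. Dlst, the succinyltransferase of the same complex, rose in WT (0.18 ± 0.07, adjusted p = 0.0358, edgeR) but was at 0.02 ± 0.07 in AppSAA mice. Citrate synthase (Cs) rose in both (0.35 ± 0.10 and 0.31 ± 0.09), and Suclg1, the shared alpha subunit of succinyl-CoA synthetase, passed in AppSAA (0.23 ± 0.08) and missed in WT mice (0.19 ± 0.08, adjusted p = 0.0504, edgeR). Idh2, the mitochondrial NADP-dependent isocitrate dehydrogenase, was the 1 cycle member called in neither genotype (-0.06 ± 0.11 and 0.01 ± 0.11).

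The cytosolic counterparts moved apart. Idh1, the cytosolic NADP-dependent isocitrate dehydrogenase, was at 23.9, 21.8, 24.3 and 22.4 CPM in WT ATV:ISO mice and at 10.9, 11.3, 10.8 and 10.6 CPM after ATV:4D9. The treated values spanned 10.6 to 11.3 CPM and lay at 0.471 of the control level (-1.09 ± 0.06, adjusted p = 6.7e-12, edgeR). With ATV:ISO, AppSAA mice had 24.0, 23.4, 23.0 and 23.4 CPM, and with ATV:4D9 13.0, 13.3, 13.8 and 12.6 CPM. The 2 groups were clearly apart (-0.83 ± 0.06, adjusted p = 5.28e-10, edgeR), and Idh1 was also the member with the lowest ratio of UMIs per cell in both genotypes. Mdh1, the cytosolic malate dehydrogenase of the malate-aspartate shuttle, rose by 0.40 ± 0.14 in WT and 0.36 ± 0.14 in AppSAA mice, and the rise lost its call without the ATV:4D9 mouse of pool 1 in either genotype and, in AppSAA mice, also without the ATV:ISO mouse of pool 3 or 4 (adjusted p up to 0.0588 and 0.166, edgeR). Mdh1 too was higher in the ATV:4D9 than in the ATV:ISO mouse of every pool, in either genotype, and both calls held with the pool as a block. A median over Idh1 and Mdh1 (-0.34 in WT and -0.24 in AppSAA mice) described neither gene.

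Pyruvate entry rose in 3 of 4 members in WT and 4 of 4 in AppSAA mice, against 30.8% and 27.9% of all genes. Pcx, pyruvate carboxylase, which feeds oxaloacetate into the cycle, was at 2.55, 2.29, 2.52 and 1.97 CPM in WT ATV:ISO mice and at 4.85, 3.98, 4.97 and 4.595 CPM after ATV:4D9. The groups did not overlap (0.99 ± 0.11, adjusted p = 3.01e-07, edgeR), and in AppSAA mice the rise was 0.61 ± 0.11 (adjusted p = 6.96e-05, edgeR). The pyruvate dehydrogenase E1 subunits moved less: Pdha1 rose by 0.28 ± 0.06 and 0.21 ± 0.06 and Pdhb by 0.19 ± 0.06 and 0.22 ± 0.06. Dlat, the E2 subunit, was at 0.19 ± 0.11 in WT (adjusted p = 0.155) and 0.28 ± 0.11 in AppSAA mice (adjusted p = 0.0404, edgeR).

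**Figure D2:**
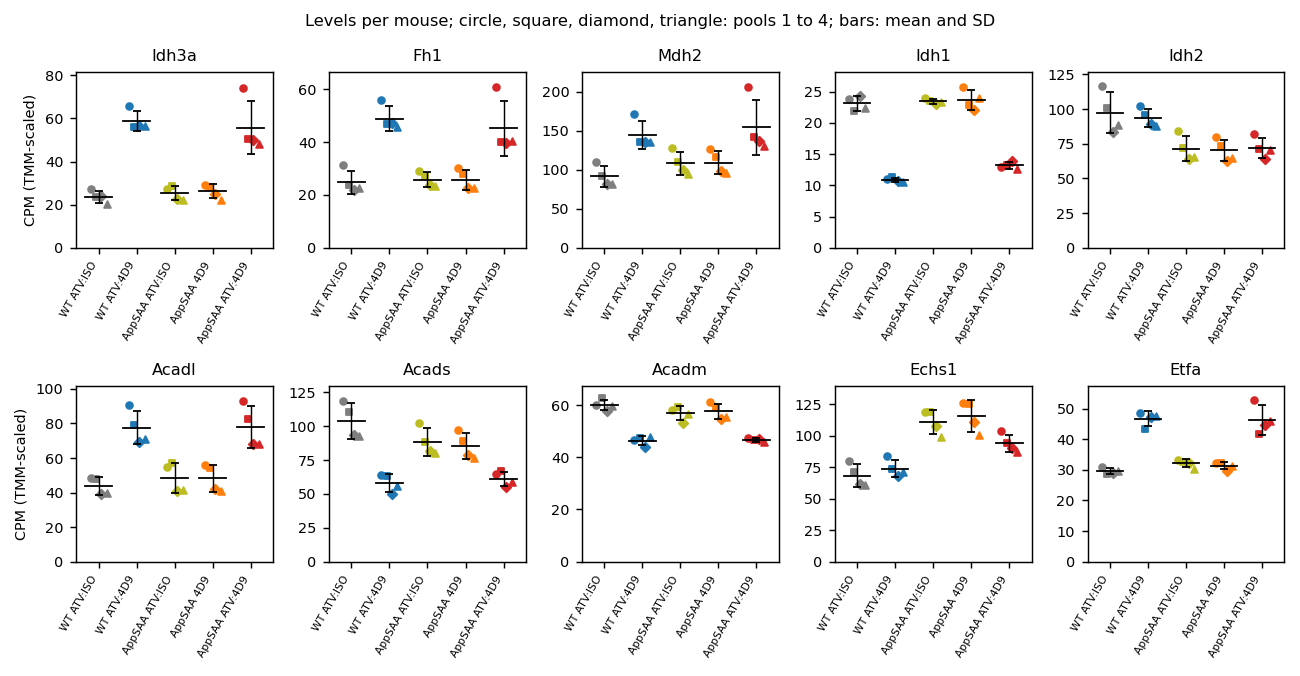
Level of 10 members in each of the 20 mice (y axis, CPM scaled by TMM factors, from 0; x axis, the 5 groups), with marker shapes for pools 1 to 4 and bars for mean and SD. Idh3a, Fh1, Mdh2, Acadl and Etfa stand higher and Idh1, Acads and Acadm lower in both ATV:4D9 groups, while Echs1 is higher in every AppSAA than in every WT mouse, Idh2 overlaps between genotypes, and the pool 1 mouse is often the highest of its group.

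Beta-oxidation held opposite moves that its median (0.17 in WT and 0.11 in AppSAA mice) did not show, with members from -0.83 to 0.83 in WT. Of 13 members, 5 rose and 2 fell in WT, where 30.8% and 32.5% of all genes did, and 4 rose and 4 fell in AppSAA mice, close to the 27.9% and 27.1% of all genes. The acyl-CoA dehydrogenases, which start each round and differ in the chain length they prefer, went in both directions. Acadl, the long-chain enzyme, was at 48.3, 48.1, 38.9 and 39.6 CPM in WT ATV:ISO mice and at 90.8, 78.9, 69.5 and 71.2 CPM after ATV:4D9. Pools 1 and 2 were higher than pools 3 and 4 in both groups and the groups did not overlap (0.83 ± 0.14, adjusted p = 3.58e-05, edgeR). Acads, the short-chain enzyme, was at 119, 110.2, 93.3 and 92.9 CPM and fell to 63.8, 63.3, 50.03 and 55.9 CPM. Every treated mouse lay below every control (-0.83 ± 0.11, adjusted p = 1.34e-06, edgeR), so that Acadl and Acads moved by the same size with opposite signs.

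Acadm, the medium-chain enzyme, fell by 0.37 on the log2 scale in WT (SE 0.06, adjusted p = 9.71e-06, edgeR), whereas Acadvl, the very-long-chain enzyme of the inner membrane, was at 0.07 ± 0.10. In AppSAA mice Acadl rose by 0.69 ± 0.14 (adjusted p = 0.000345, edgeR), and Acads and Acadm were at -0.53 ± 0.11 and -0.28 ± 0.06 (adjusted p = 0.000354 and 0.000265, edgeR). Acat1, the mitochondrial acetoacetyl-CoA thiolase, rose from 50.7, 47.9, 43.6 and 40.7 CPM to 75.8, 68.6, 67.2 and 66.6 CPM in WT, with no overlap (0.61 ± 0.09, adjusted p = 1.07e-05, edgeR). It rose by 0.58 ± 0.09 in AppSAA mice. Acaa2, the medium-chain ketoacyl-CoA thiolase, was on the other side, at -0.13 ± 0.09 in WT (adjusted p = 0.245) and called lower in AppSAA mice (-0.23 ± 0.09, adjusted p = 0.0387, edgeR). Echs1, the short-chain enoyl-CoA hydratase, was at 0.12 ± 0.10 in WT and fell by 0.24 on the log2 scale in AppSAA mice (SE 0.10, adjusted p = 0.0433, edgeR). Hadha and Hadhb, the trifunctional protein subunits, rose together in WT (0.26 ± 0.09 and 0.23 ± 0.07) but were at 0.11 ± 0.09 and 0.04 ± 0.07 in AppSAA mice. Decr1, the dienoyl-CoA reductase for unsaturated chains, passed in both (0.25 ± 0.11 and 0.25 ± 0.10), and the isomerase Eci2 in AppSAA mice (0.16 ± 0.06). Hadh and Eci1 passed in neither genotype, with log2 fold changes between -0.03 and 0.26, although with the pool as a block Hadh passed in WT and Eci1 in both.

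Of the activation and carnitine genes, the paired acyl-CoA synthetases moved apart. Acsl1 was at 39.7, 39.2, 38.8 and 41.1 CPM in WT ATV:ISO mice and at 30.2, 31.2, 31.1 and 33.7 CPM after ATV:4D9, with no overlap (-0.33 ± 0.07, adjusted p = 0.00052, edgeR). Acsl4, which prefers arachidonic acid and other polyunsaturated chains, rose by 0.23 ± 0.07 in WT and 0.29 ± 0.07 in AppSAA mice, and Acsl1 was at -0.22 ± 0.07 in AppSAA mice (adjusted p = 0.0144, edgeR). The carnitine steps were small: Cpt1a, the outer-membrane carnitine palmitoyltransferase that sets the rate of entry, was at -0.05 ± 0.09 and -0.16 ± 0.09, and its inner-membrane partner Cpt2 at -0.02 ± 0.11 and 0.13 ± 0.11. Slc25a20, the carnitine-acylcarnitine carrier, passed in AppSAA mice (0.21 ± 0.09, adjusted p = 0.0464, edgeR) and was at -0.05 ± 0.09 in WT. The electron transfer flavoprotein subunits, which take electrons from the acyl-CoA dehydrogenases, rose together. Etfa was at 30.9, 28.7, 29.1 and 29.5 CPM in WT ATV:ISO mice and at 48.6, 43.2, 47.2 and 47.7 CPM after ATV:4D9. The groups were far apart relative to the spread within each (0.66 ± 0.07, adjusted p = 7.2e-08, edgeR), and in AppSAA mice the rise was 0.53 ± 0.07 (adjusted p = 1.97e-06, edgeR). Etfb rose by 0.50 ± 0.11 and 0.55 ± 0.11. Etfdh, the oxidoreductase that passes these electrons on to ubiquinone, was at -0.06 ± 0.10 and -0.09 ± 0.09.

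Cell cycle transcripts moved with ATV:4D9: the 8 markers summed to 126 to 161 CPM in WT ATV:ISO mice and 1351 to 1574 CPM after ATV:4D9, and to 179 to 202 and 1070 to 1367 CPM in AppSAA mice. The 8 microglial markers were lower in both ATV:4D9 groups (17438 to 19751 CPM against 21168 to 26040 CPM in the others), and the 5 immediate early genes ran from 5925 to 7333 against 7107 to 10556 CPM. The 3 endothelial markers were lower after ATV:4D9 in WT (9.88 to 12.3 against 17.3 to 22.4 CPM) and AppSAA mice (15.5 to 27.3 against 39.9 to 50.9 CPM), and the 3 oligodendrocyte markers in WT (15.3 to 25.3 against 26.4 to 35.1 CPM). By deposited cluster, the mean endothelial sum was highest in cluster 1 (74.0 CPM, against 18.3 CPM in cluster 0). Cluster 1 held 38.3% of AppSAA cells with ATV:ISO and 13.5% after ATV:4D9, but 1.41% and 0.383% of WT cells. The part of these markers in the result was not tested. Without the cells of deposited cluster 4, where the cell cycle markers were highest, 29 members were higher and 5 lower in WT with all 27 calls kept, against 31.1% and 27.8% of the 13663 genes of that fit. In AppSAA mice 24 were higher and 4 lower, against 26.2% and 23.1%, and Ogdh, Echs1 and Acaa2 lost their calls. Cell cycle transcripts stayed in that fit: their mean sum was 721 CPM in cluster 2 and 519 CPM in cluster 5, against 134 CPM in cluster 0. Cluster 2 held 47.8% of WT ATV:4D9 cells. Without TMM factors the median of all genes shifted by -0.12 in WT, and 15 members were called higher and 6 lower, with 3726 of all genes higher and 5390 lower. On that scale Cs and Acsl4 lost their calls in both genotypes, Pdhb, Dlst, Hadha, Hadhb and Decr1 in WT (Hadhb at 0.11 and Pdhb at 0.07), and Pdha1, Ogdh, Slc25a20, Eci2 and Decr1 in AppSAA mice. In AppSAA mice the count higher was 15 without the ATV:ISO mouse of pool 3 or the ATV:4D9 mouse of pool 1, and the count lower was 3 without the ATV:ISO mouse of pool 1 or the ATV:4D9 mouse of pool 2. Calls that held at all 16 other settings numbered 18 of 27 in WT and 14 of 29 in AppSAA mice, and those held in both genotypes were Pcx, Idh3a, Dld, Suclg2, Fh1, Mdh2, Idh1, Acadm, Acads, Acadl, Acat1, Etfa and Etfb. Pdha1, Idh3g, Ogdh, Sucla2 and Acsl1 held in WT besides, and Pdhb in AppSAA mice, and no called member changed sign at any setting. In WT, the calls of Idh3b, Dlst, Hadha and Decr1 were each lost on leaving out any of several mice (adjusted p up to 0.104, 0.584, 0.097 and 0.145 over the settings, edgeR), although each was higher in the ATV:4D9 than in the ATV:ISO mouse of every pool. Besides Idh3b and Mdh1, leaving out the WT ATV:ISO mouse of pool 2 lost Dlst and Decr1, that of pool 3 Dlst, Hadha and Decr1, and that of pool 4 Hadha and Decr1, while the WT ATV:4D9 mouse of pool 1 or 2 lost Hadha and Decr1 and that of pool 3 or 4 Dlst.

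In AppSAA mice, besides Idh3b and Mdh1, leaving out the ATV:ISO mouse of pool 1 lost Ogdh, Acsl1, Echs1 and Acaa2, that of pool 2 Dlat, Slc25a20, Echs1, Decr1 and Acaa2, that of pool 3 Dlat, Suclg1, Sucla2, Slc25a20, Echs1, Eci2 and Decr1, and that of pool 4 Dlat, Sucla2, Slc25a20, Eci2 and Decr1. Leaving out the ATV:4D9 mouse of pool 1 lost Dlat, Suclg1, Sucla2, Slc25a20, Eci2 and Decr1, that of pool 2 Acsl1, Echs1, Eci2 and Acaa2, that of pool 3 Dlat, Slc25a20, Echs1 and Acaa2, and that of pool 4 Ogdh, Echs1 and Acaa2. The adjusted p of Echs1 reached 0.343 and that of Slc25a20 0.268 (edgeR). With the pool as a block, Dlat, Suclg1, Hadh, Echs1, Eci1, Eci2 and Acaa2 were also called in WT, making 28 higher and 6 lower, against 35.4% and 38.5% of the 14207 genes of that fit. In AppSAA mice Cpt1a, Acadvl, Hadha and Eci1 were added, making 26 higher and 7 lower, against 34.3% and 35.8%. No call of either of these comparisons was lost with the block.

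The antibody without the transferrin receptor-binding Fc gave no call against ATV:ISO. These 2 antibodies differ both in TREM2 binding and in the Fc, and none of the 5 groups was given an isotype without that Fc. Comparing AppSAA 4D9 with AppSAA ATV:ISO mice, 0 members were called higher and 0 lower by edgeR, DESeq2 or limma-voom, 0 had an unadjusted p under 0.05, and the share called among all genes was 0% in either direction. Log2 fold changes ran from -0.09 to 0.13, and the 95% intervals of all 40 lay within -0.29 to 0.36. For Idh3a the interval was -0.21 to 0.31 and for Idh1 -0.10 to 0.13, both short of the differences seen with ATV:4D9. Set directly against 4D9, ATV:4D9 gave 19 members higher, against 27.6% of all genes, and 6 lower, against 26.7%. Idh3a (1.10 ± 0.13), Fh1 (0.82 ± 0.14), Acadl (0.69 ± 0.14), Pcx (0.68 ± 0.11), Acat1 (0.58 ± 0.09) and Etfa (0.56 ± 0.07) were highest. Idh1 (-0.84 ± 0.06), Acads (-0.48 ± 0.11), Acadm and Echs1 (both -0.30), Acaa2 (-0.24 ± 0.09) and Acsl1 (-0.19 ± 0.07) were lower. This comparison uses the same AppSAA ATV:4D9 mice as the one against ATV:ISO, so it is not a second test of them. Markers moved here too: cell cycle sums were 186 to 212 CPM with 4D9 and 1070 to 1367 CPM with ATV:4D9. Endothelial sums were 42.3 to 48.6 and 15.5 to 27.3 CPM, and microglial sums 21388 to 24113 and 17438 to 18306 CPM. Their part in the result was not tested. Of its 25 calls 15 held at all 16 other settings, 12 higher and, among the lower, Idh1, Acadm and Acads. Ogdh, Echs1 and Acaa2 lost their calls without the cells of cluster 4, and Pdhb, Cs, Ogdh and Acsl4 without TMM factors. Leaving out the 4D9 mouse of pool 1 lost Ogdh and Acaa2, that of pool 2 Pdhb, Ogdh, Acsl1 and Echs1, that of pool 3 Pdhb, Suclg1 and Acsl1, and that of pool 4 Pdhb and Acsl1. Leaving out the ATV:4D9 mouse of pool 1 lost Pdhb, Dld, Suclg1, Acsl1 and Decr1, that of pool 2 Acsl1 and Acaa2, and that of pool 4 Ogdh, Echs1 and Acaa2. The adjusted p of Echs1 reached 0.142, that of Acaa2 0.135 and that of Acsl1 0.115 (edgeR). Dlat, Idh3b, Mdh1, Acadvl, Hadha, Hadhb and Eci1 also passed with the pool as a block, making 26 higher, against 34% of all genes, and 6 lower, against 35.3%.

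In the fit with TMM factors and no pool term, few members differed by genotype. The comparison shares its AppSAA ATV:ISO and WT ATV:ISO mice with the treatment comparisons above. In AppSAA relative to WT mice, both given ATV:ISO, 2 members were higher, against 14.4% of all genes, and 4 lower, against 13.7%. Echs1 was at 80.2, 71.2, 61.4 and 60.7 CPM in WT and at 119, 119, 108 and 99.4 CPM in AppSAA mice. Every AppSAA mouse lay above every WT mouse (0.70 ± 0.10, adjusted p = 2.11e-05, edgeR), or 1.63-fold. Idh2 was at 117, 101, 83.5 and 88.5 CPM in WT and at 84.1, 72.0, 64.2 and 65.4 CPM in AppSAA mice. The groups overlapped only through the pool 1 AppSAA mouse, which was lower than its own pool's WT mouse, and the difference passed (-0.45 ± 0.11, adjusted p = 0.00462, edgeR). Suclg2 was higher (0.34 ± 0.07, adjusted p = 0.000903) and Acsl1 (-0.30 ± 0.07, adjusted p = 0.00443), Slc25a20 (-0.28 ± 0.09, adjusted p = 0.024) and Idh3g (-0.24 ± 0.08, adjusted p = 0.0269, edgeR) were lower. The Echs1, Idh2, Suclg2 and Acsl1 calls held at all 16 other settings. Those of Idh3g and Slc25a20 did not, and without the AppSAA ATV:ISO mouse of pool 2 both were lost, leaving 2 lower.

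These genotype counts depended on the settings. The count lower was also 2 without a low count filter, with cells of 1000 to 25000 UMIs or without the cells of cluster 4 (9.51% of all genes in that last fit). With the pool as a block, 7 members were higher, against 21.6% of all genes in that fit, and 8 lower, against 28.7%: Cs, Mdh2, Acadl, Hadh and Hadha joined the higher and Dlat, Cpt2, Acads and Acat1 the lower. Without TMM factors the median of all genes shifted by -0.18, and 2 were higher and 19 lower, with Echs1 and Suclg2 still the higher pair, while 1512 of the 14058 genes were higher and 5275 lower. The 3 endothelial markers summed to 39.9 to 50.9 CPM in AppSAA and 17.3 to 22.4 CPM in WT mice, cell cycle markers to 179 to 202 and 126 to 161 CPM, and immediate early genes to 7359 to 10556 and 7107 to 9677 CPM, and their part in the result was not tested. Cluster 1, where the endothelial sum was highest (mean 74.0 CPM), held 38.3% of AppSAA and 1.41% of WT cells with ATV:ISO.

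**Figure D3:**
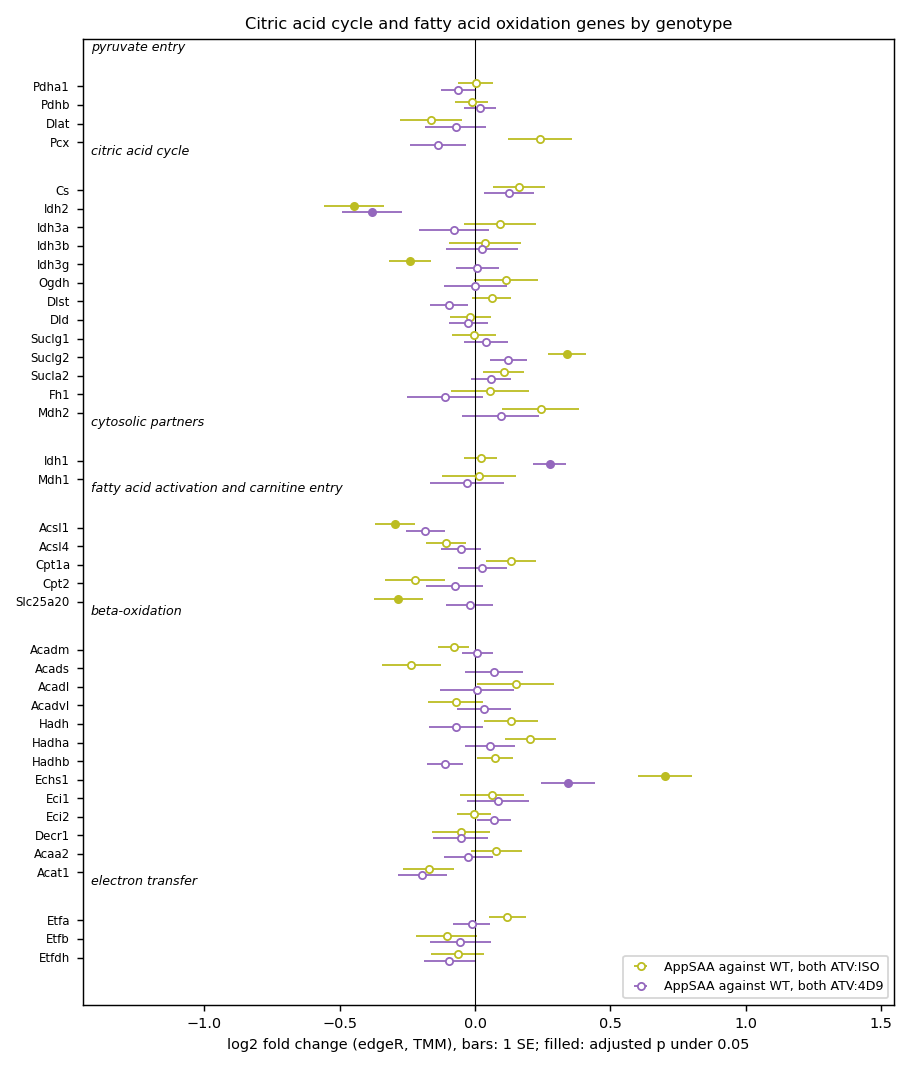
Log2 fold change (x axis) of each member (y axis, by role) in AppSAA relative to WT mice, both given ATV:ISO (olive) or both given ATV:4D9 (purple), with 4 mice a group, bars of 1 SE and filled points for an adjusted p under 0.05. Echs1 (0.70 and 0.34) and Idh2 (-0.45 and -0.38) pass in both; the ATV:ISO values of all 40 run from -0.45 to 0.70 with a median of 0.02.

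After ATV:4D9, AppSAA differed from WT mice in 2 members higher, against 7.84% of all genes, and 1 lower, against 3.98%. Echs1 was again higher (104, 94.3, 90.4 and 87.2 CPM against 83.6, 73.4, 68.1 and 70.9 CPM), with no overlap (0.34 ± 0.10, adjusted p = 0.0276, edgeR). Idh1, level between genotypes under ATV:ISO (0.02 ± 0.06), was at 13.2 ± 0.506 against 10.9 ± 0.291 CPM, with no overlap (0.28 ± 0.06, adjusted p = 0.00364, edgeR). Idh2 was at 71.8 ± 7.41 against 93.6 ± 6.72 CPM, again with no overlap (-0.38 ± 0.11, adjusted p = 0.0279, edgeR). None of the 3 held at every setting: leaving out the WT ATV:4D9 mouse of pool 1 or 2 or the AppSAA ATV:4D9 mouse of pool 2 or 3 took the count lower to 0, leaving out any WT ATV:4D9 mouse of pools 2 to 4 or AppSAA ATV:4D9 mouse of pools 1 and 2 took the count higher to 1, and leaving out the cells of cluster 4 took the Idh1 call. With the pool as a block Acsl1, Hadhb and Acat1 were also lower, making 4, against 14.2% of all genes in that fit, and without TMM factors, where the median of all genes shifted by -0.14, 1 was higher and 9 lower, with 792 of all genes higher and 2201 lower. On that scale Echs1 stayed higher and the Idh1 call was lost (12.3 against 11.2 CPM). Endothelial markers summed to 15.5 to 27.3 CPM in AppSAA and 9.88 to 12.3 CPM in WT mice after ATV:4D9. Cell cycle markers summed to 1070 to 1367 and 1351 to 1574 CPM. The part of these markers in the result was not tested.

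The difference of the ATV:4D9 response between genotypes, tested as an interaction with the same 16 mice, gave 0 members higher, against 3.79% of all genes, and 0 lower, against 5.35%, by edgeR, and 0 by DESeq2 or limma-voom. Of 6 members at an unadjusted p under 0.05, Idh1 came closest, with a fall of less size in AppSAA mice, a difference of 0.25 ± 0.09 (adjusted p = 0.067, edgeR), with a 95% interval of 0.09 to 0.42. The Pcx interaction was -0.38 (interval -0.68 to -0.07, adjusted p = 0.157, edgeR) and that of Idh3a -0.17 (interval -0.53 to 0.19). With the pool as a block 3 interactions were positive (Idh3g, Idh1 and Acads), against 16.4% of all genes in that fit, and 6 negative (Dlst, Suclg2, Hadh, Hadha, Hadhb and Echs1), against 13.5%, with adjusted p from 0.00026 to 0.0448 (edgeR). Without TMM factors, and without the WT ATV:ISO mouse of pool 1, Echs1 was called.

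Of 61 other genes of these pathways, 53 could be tested, and in WT after ATV:4D9 16 rose and 16 fell, close to the 30.8% and 32.5% of all genes. The 11 tested genes of the cycle and its supply included 7 that rose and 0 that fell, among them the succinate dehydrogenase subunits Sdhb, Sdhc and Sdhd, with Sdha not passing. The 7 lipid supply genes went the other way, 5 lower and 1 higher. The largest rises were Mecr, a mitochondrial enoyl reductase of fatty acid synthesis (1.35 ± 0.15), and Pdk3, a pyruvate dehydrogenase kinase (1.05 ± 0.10). Me1, cytosolic malic enzyme, was also called higher and is in these counts, but it had 1 to 3 UMIs a mouse with ATV:ISO and 14 to 18 after ATV:4D9. It met the low count filter through the ATV:4D9 groups, as only 1 of the 12 other mice reached the filter level of 0.208 CPM, and it had to be higher there, so its fold is not given. Another kinase of the same family, Pdk2, had the largest fall (-1.65 ± 0.11), followed by Lipe, hormone-sensitive lipase (-1.10 ± 0.08), and the fatty acid-binding protein Fabp5 (-1.03 ± 0.32). In AppSAA mice 11 of the 53 rose and 17 fell, against 27.9% and 27.1% of all genes. The AppSAA to WT comparison under ATV:ISO, with 14.4% of all genes higher and 13.7% lower, had 10 higher, Fabp5 (4.04 ± 0.34) and the lipid droplet coat protein Plin2 (1.05 ± 0.11) among them, and 5 lower. In the interaction 3 of the 53 were called higher, against 3.79% of all genes, and 1 lower, against 5.35%. Pdk2, Lipe and the triglyceride lipase Pnpla2 fell less in AppSAA mice (0.69 ± 0.16, 0.73 ± 0.11 and 0.54 ± 0.10), and Oxct1, which activates ketone bodies, had a smaller response (-0.37 ± 0.10).

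The deposited annotation places the cells in 6 clusters at a resolution of 0.2, and the groups filled them unevenly. Cluster 0 held 60.4% ± 2.60 of WT ATV:ISO cells but 3.11% ± 1.01 after ATV:4D9, when clusters 2 and 4 held 47.8% ± 3.48 and 39.95% ± 4.44. AppSAA ATV:ISO cells were spread over clusters 0 (30.8% ± 1.92), 1 (38.3% ± 4.64) and 3 (25.1% ± 3.27), and after ATV:4D9 over clusters 2 (35.4% ± 4.54), 4 (22.4% ± 3.33), 5 (22.4% ± 4.26) and 1 (13.5% ± 3.05). The clusters were made from expression, and the sources used here do not say whether members were among the genes used. Levels between clusters are therefore a description without a test. They are means over mice with at least 20 cells in a cluster, 16 to 20 of the 20 mice, and UMIs per cell differed between clusters (7632 in cluster 0, 14829 in 1, 15470 in 2, 9969 in 3, 20599 in 4 and 14713 in 5).

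Opposite members of a role also stood apart by cluster. Echs1 stood out in cluster 1, at 164 ± 26.9 CPM over 16 mice against 68.4 ± 7.10 CPM in cluster 0 over 20, a log2 ratio of 1.23 and higher in 16 of 16 mice. Idh2 was lowest in clusters 1 and 5 (54.5 ± 11.6 and 58.8 ± 11.3 CPM, against 84.5 ± 16.5 CPM in cluster 0). Cluster 1 was also the only one where Idh1 was above cluster 0 by more than 0.1 (27.9 ± 7.86 against 21.8 ± 4.50 CPM, log2 ratio 0.40, higher in 14 of 16 mice). Idh3a was at 49.95 ± 10.4 CPM in cluster 2 and 53.1 ± 15.6 CPM in cluster 4 against 25.5 ± 5.18 CPM in cluster 0, higher in 20 of 20 and 16 of 16 mice, and Fh1 followed (40.5 ± 7.79 and 52.9 ± 11.2 against 23.0 ± 6.67 CPM).

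Cluster 4, with the highest cell cycle sum (2229 CPM against 134 in cluster 0), held the widest spread of members, from -1.06 to 1.44. Pcx (6.76 ± 2.08 against 2.45 ± 1.35 CPM) and Acadl (91.8 ± 14.8 against 38.7 ± 8.93 CPM) were highest there. Idh1 (10.4 ± 5.91 CPM), Acads (47.2 ± 7.72 against 97.6 ± 13.9 CPM) and Acadm (37.6 ± 3.39 against 56.7 ± 6.16 CPM) had their lowest means there, Acads and Acadm below cluster 0 in 16 of 16 mice. Acsl1 was below cluster 0 in all 17 mice of cluster 5 (24.8 ± 5.90 against 37.9 ± 5.55 CPM), where Acads was lower and Acadl higher in every mouse as well. In cluster 3, with the highest immediate early sum (17589 CPM), members stayed between -0.17 and 0.29 of cluster 0, and Dlst alone was higher in 20 of 20 mice. Group means within a cluster also stood apart, though in clusters 2 and 4 no test was run with the ATV:ISO or 4D9 groups. Idh1 in cluster 4 was at 6.21 ± 0.228 CPM in WT ATV:4D9 and 6.19 ± 0.367 CPM in AppSAA ATV:4D9 mice, but at 11.2 ± 5.03 CPM in AppSAA ATV:ISO and 17.96 ± 4.96 CPM in AppSAA 4D9 mice, which had 0.949% and 1.27% of their cells there. The sums of these last groups held only 27 to 74 and 26 to 54 cells a mouse, against 445 to 1862 after ATV:4D9. In cluster 4, border macrophage markers summed to up to 196 CPM and B cell markers to up to 22.4 CPM, against up to 36.5 and 0.836 CPM in cluster 0. Their part in these levels was not tested. Idh3a in cluster 2 was at 58.6 ± 4.04 and 60.8 ± 10.4 CPM in the ATV:4D9 groups of WT and AppSAA mice and at 40.8 ± 5.77 to 45.0 ± 5.499 CPM in the other groups. These other groups had only 23 to 172 cells a mouse there, against 818 to 2186 after ATV:4D9, and this difference was not tested. Idh2 in cluster 4 was at 99.6 ± 6.71 CPM in WT and 84.6 ± 6.83 CPM in AppSAA mice after ATV:4D9, and at 65.3 ± 9.22 and 64.6 ± 5.28 CPM in the other AppSAA groups. Echs1 in cluster 1 differed by less than its spread over the 3 AppSAA groups, at 161 ± 21.4, 170.4 ± 27.4 and 171 ± 12.5 CPM.

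The member medians relative to cluster 0 were 0.12, 0.24, 0.05, 0.14 and 0.14 in clusters 1 to 5, beside -0.02, 0.02, -0.003, 0.04 and 0.02 over all genes. Without TMM factors the ratios of all genes shifted to -0.47, -0.17, -0.12, -0.15 and -0.25, and on that scale Idh1 was level in cluster 1 (-0.03). With TMM factors 28 members were above cluster 0 in cluster 1. Of 8210 genes at 10 CPM or more in either cluster, 3967 were. Without TMM factors only Mdh2 (0.19), Acadl (0.07), Hadh (0.05), Hadha (0.04) and Echs1 (0.78) of the members were above, and all other members were below.

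**Figure D4:**
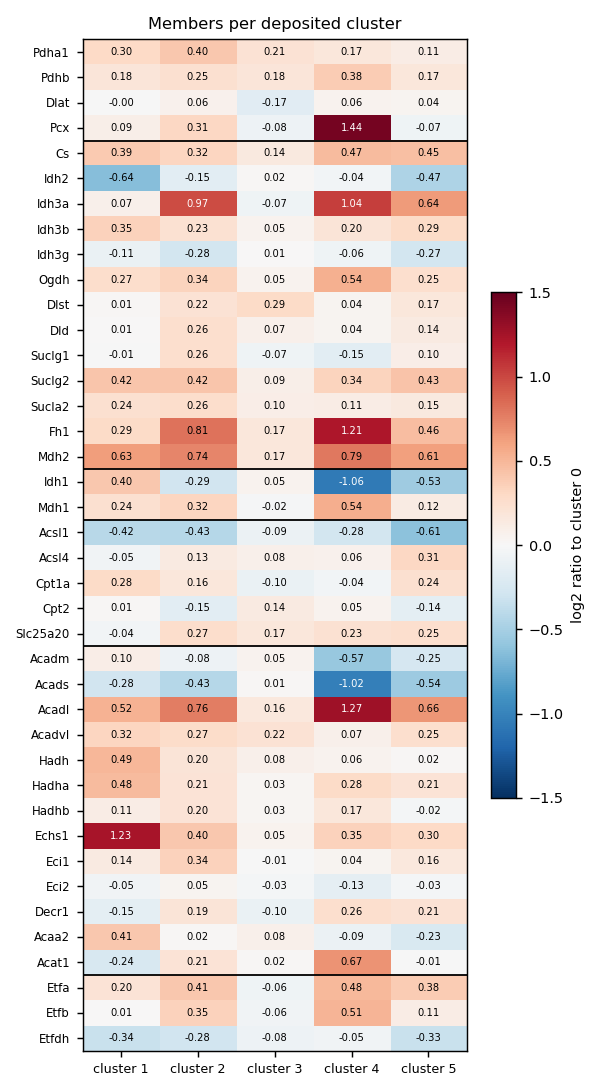
Log2 ratio of each member's mean level in clusters 1 to 5 (columns) to that in cluster 0, colour scale from -1.5 (blue) to 1.5 (red), with horizontal lines between roles. Echs1 (1.23) and Idh2 (-0.64) stand apart in cluster 1, and Pcx, Acadl and Fh1 against Idh1 and Acads in cluster 4.

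Within single clusters few members were called. Cells were assigned to clusters by their expression, and 3.11% of WT and 2.52% of AppSAA cells were in cluster 0 after ATV:4D9. A small difference inside a cluster therefore describes only the cells found there. It cannot show whether a member responded in the other cells. In cluster 0, WT ATV:4D9 (60 to 186 cells a mouse) against WT ATV:ISO gave 0 members higher, against 1.02% of 11691 genes tested, and 0 lower, against 0.453%, by edgeR, with 3 at an unadjusted p under 0.05. Idh1 was at 0.01 with a 95% interval of -0.29 to 0.32 and Acadl at -0.07 (-0.45 to 0.31). These intervals leave out the whole-sample values of -1.09 and 0.83, which come mostly from cells of other clusters after ATV:4D9. Idh3a was at 0.23 (-0.12 to 0.58), Fh1 at -0.03 (-0.45 to 0.39) and Acads at -0.23 (-0.48 to 0.02). The sums are smaller here: the median half-width of the members' intervals was 0.28 against 0.19 over all cells. With the pool as a block 3 members were called, Idh2 lower (-0.25 ± 0.08, adjusted p = 0.0411, edgeR) and Hadha (0.24 ± 0.07) and Etfa (0.43 ± 0.12) higher, against 3.66% of all genes lower and 5.09% higher in that fit.

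In cluster 0 of AppSAA mice, ATV:4D9 (37 to 195 cells a mouse) against ATV:ISO also gave 0 higher, against 0.53%, and 0 lower, against 0.137%, by edgeR, with 2 at an unadjusted p under 0.05. Idh2 was the nearest, at 103, 90.0, 84.9 and 83.6 CPM with ATV:ISO and 49.6, 67.2, 63.6 and 65.4 CPM with ATV:4D9. The groups did not overlap (-0.51 ± 0.14, adjusted p = 0.0886, edgeR), and with the pool as a block the difference passed (-0.48 ± 0.10, adjusted p = 0.000836, edgeR), with 1.68% of all genes lower in that fit, although Idh2 over all cells was at 0.01. In cluster 1 of the same groups 0 members were higher, against 0.92% of 13045 genes, and 0 lower, against 0.422%, by edgeR, with 3 at an unadjusted p under 0.05. With the pool as a block Idh3a was lower and Idh3b higher there (-0.27 ± 0.08 and 0.27 ± 0.06), against 3.18% of all genes lower and 4.07% higher, the reverse of Idh3a over all cells. By genotype under ATV:ISO, cluster 0 gave 0 higher, against 0.222%, and 0 lower, against 0.0513%, by edgeR, with 0 at an unadjusted p under 0.05, and Echs1 there was at 0.18 ± 0.06 with the pool as a block (adjusted p = 0.0559, edgeR).

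**Figure D5:**
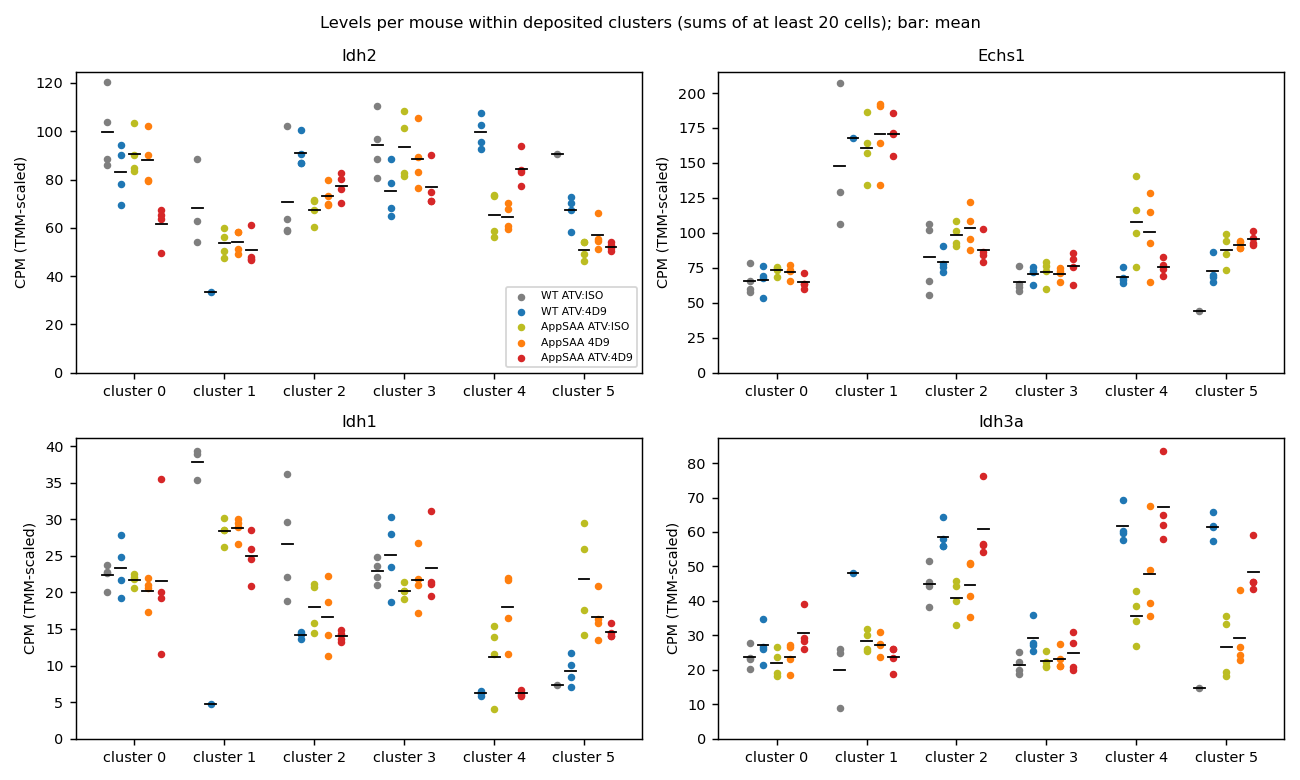
Level of Idh2, Echs1, Idh1 and Idh3a in each mouse (y axis, CPM scaled by TMM factors, from 0) within each deposited cluster (x axis), coloured by group, for sums of at least 20 cells, with bars for group means. Echs1 stands highest in cluster 1 (means 161 to 171 CPM in the 3 AppSAA groups), and Idh1 is lowest in cluster 4 of both ATV:4D9 groups (means 6.21 and 6.19 CPM).

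Between genotypes after ATV:4D9, 39 members could be tested in clusters 2 and 5 and 40 in cluster 4. Cluster 2 gave 0 members higher, against 1.94% of 9618 genes, and 0 lower, against 0.125%, by edgeR. Cluster 4 gave 0 higher, against 2.49%, and 0 lower, against 0.273%, by edgeR. Each of these 2 clusters had 1 member at an unadjusted p under 0.05. That 1 member was Idh2 in both, at -0.24 ± 0.10 and -0.24 ± 0.09, and with the pool as a block it was called in both (adjusted p = 0.0168 and 0.0102, edgeR), with 2.74% and 3.88% of all genes lower. Cluster 5 gave 2 higher, against 3.64%, and 1 lower, against 2.79%. It held 99 to 253 cells in each WT mouse, 4.21% ± 1.02 of their cells, and 690 to 1071 in each AppSAA mouse. Idh1 was at 10.0, 7.02, 11.7 and 8.41 CPM in WT and 13.97, 13.99, 15.8 and 14.4 CPM in AppSAA mice. The groups did not overlap (0.64 ± 0.18, adjusted p = 0.0288, edgeR). Echs1 was higher (0.38 ± 0.11) and Idh2 lower (-0.38 ± 0.10, adjusted p = 0.0240, edgeR). The 3 calls in cluster 5 became 8 with the pool as a block, when Acads and Acaa2 joined the higher and Dlat, Idh3a and Acsl4 the lower, against 7.27% of all genes higher and 7.39% lower. They became 0 without the WT ATV:4D9 mouse of pool 2 or 4 or the AppSAA ATV:4D9 mouse of pool 2, 3 or 4, and 5 without the AppSAA ATV:4D9 mouse of pool 1.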

How the data were processed

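Single cells of 20 mice were measured in 4 pools with CellPlex tags. The deposited values are UMI counts per gene and cell, made by the authors with Cell Ranger 6.1.1 on mm10, and the authors integrated and clustered the cells with Seurat; which cells and genes they removed, and how doublets were treated, is not given in the sources used here, and no doublet caller was run here. The deposited percent of mitochondrial UMIs per cell, which the authors computed, had medians of 1.01 to 2.09 per mouse. Here, the counts of each mouse were added up, over all its cells and within each cluster where it had at least 20, and tested in R 4.3.3 with edgeR 4.0.16 (TMM factors, filterByExpr, quasi-likelihood test, Benjamini-Hochberg adjustment), with all 20 mice in 1 fit and no pool term, on 14058 genes. DESeq2 1.42.0 and limma 3.58.1 (voom) were alternatives. The 40 members and the 61 other pathway genes were chosen with earlier results of these data known. Named with values were called members by size, up to 12 per comparison, members opposite to most of their role, and the 3 largest rises and falls of the other genes. Other members are given by value or count, and Fabp5 and Plin2 under ATV:ISO, the interactions of Pdk2, Lipe, Pnpla2 and Oxct1, and the Sdh genes were named after their values were seen. Same-pool mice deviated together (r = 0.143 to 0.607 over 40 pairs, median 0.394), so the pool numbers, which the deposited annotation gives, pair the mice, and the blocked fit is given where it changed a call. The median was -0.19 over 120 pairs of different pools. Deviations were taken from the mean of each group of 4. Same-pool pairs above 0 then push the others below 0, so the -0.19 is not an independent baseline. The spread between mice includes counting error, which is largest for members of few UMIs such as Pcx.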

Additional observations from a re-analysis of the deposited data

Results flagged for a closer look

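With 4 mice a group, 18 of the 200 combinations of member and group had 1 mouse set apart from its 3 companions by more than Dixon's 95% critical share of the group's range, where chance gives about 1 in 20, and 16 of these mice were high and 2 low. Most were mice of pool 1. In WT ATV:ISO this held for Pdhb (47.0 CPM), Sucla2 (30.2 CPM) and Decr1 (25.2 CPM), and in WT ATV:4D9 for Idh3a (65.9 CPM), Dld (53.0 CPM), Mdh2 (171 CPM), Mdh1 (192 CPM), Eci1 (38.5 CPM) and Etfb (123 CPM). In AppSAA ATV:4D9 it held for Idh3a (74.3 CPM), Dld (55.3 CPM), Fh1 (60.8 CPM), Mdh2 (207 CPM) and Decr1 (28.7 CPM). The mouse of pool 1 was low for Acsl4 in AppSAA ATV:ISO (43.0 CPM). Slc25a20, the carnitine-acylcarnitine carrier, stood apart in 3 groups, high in pool 2 of WT ATV:ISO (9.87 CPM) and pool 4 of AppSAA 4D9 (9.35 CPM) and low in pool 2 of AppSAA ATV:ISO (6.37 CPM). Idh3a, Fh1, Mdh2 and Etfb stayed called after ATV:4D9 in both genotypes without the pool 1 mouse.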

How the results depend on the processing

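Of 408 alternatives over 28 counts and medians, 350 stayed within 1.5 times (counts) or 1 SD (medians), 58 moved and 0 reversed. Alternatives without TMM factors or without the cells of cluster 4 were chosen after seeing the data. For ATV:4D9 in WT the median was 0.27 with RLE factors, 0.12 without TMM factors and 0.31 without cluster 4. For AppSAA against WT under ATV:ISO, 7 were higher and 8 lower with the pool block, 2 lower without a low count filter, with cells of 1000 to 25000 UMIs or without cluster 4, and 19 lower without TMM factors (median -0.17). Under ATV:4D9, the same contrast gave 1 higher without TMM factors or cluster 4, and 4 lower with the block, 2 by DESeq2 and 9 without TMM factors (median -0.16). The interaction gave 3 higher and 6 lower with the block and 1 lower without TMM factors. With the block, 3 and 1 members were called for ATV:4D9 within cluster 0 of WT and AppSAA mice (1 in WT at 50 cells or more), 2 within cluster 1, and 1, 1 and 8 by genotype within clusters 2, 4 and 5. The block lost no call.

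Leaving out 1 mouse gave a WT treatment median of 0.19 to 0.25, 2 to 5 lower by genotype under ATV:ISO, 15 to 24 higher and 3 to 6 lower for ATV:4D9 in AppSAA mice, a median of -0.035 to 0.042 for 4D9, 1 to 2 higher, 0 to 2 lower and a median of -0.081 to 0.0086 by genotype under ATV:4D9, 0 to 1 lower in the interaction and 0 to 5 called by genotype within cluster 5. The cause of these moves was not tested. The treatment contrast within cluster 0 of AppSAA mice was not run at 50 cells or more, since too few mice remained. Small sums in cluster 0 of the ATV:4D9 groups limit what could be detected there, as does the assignment of cells by expression.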
